A study of Mus musculus with 24 samples.

Results

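Messenger RNA receives its poly(A) tail from a set of protein complexes in the nucleus and loses it to another set in the cytoplasm. The 34 genes described here encode both sets, and were taken as a named list of subunits: 8 of the cleavage and polyadenylation specificity factor and its partners, 4 of the cleavage stimulation factor, 3 of cleavage factor I, 2 of cleavage factor II, 2 poly(A) polymerases, 10 of the CCR4-NOT deadenylase, 2 of PAN2-PAN3, the nuclease Parn, and Tob1 and Tob2, which tether deadenylases to messages. All 34 were found by symbol among 23871 PAPERCLIP genes and by Ensembl identifier among 47069 RNA-seq genes.

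The specificity factor reads the AAUAAA signal and cuts the nascent transcript, the stimulation factor reads the GU-rich stretch behind the cut, and cleavage factor I reads UGUA and is known to favour distal sites. Poly(A) polymerase then adds the tail, which the poly(A)-binding protein coats. PAN2-PAN3 starts to trim the tail and CCR4-NOT, with catalytic subunits of the Cnot6 and Cnot7 kinds, takes it down further, which in immune cells limits the life of many inflammatory messages. The counts used here are per gene and say nothing about which polyadenylation site was used, about protein, or about enzyme activity.

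In cTag-PAPERCLIP, cells that have expressed Cre make a poly(A)-binding protein carrying a GFP tag (Ctag-PABP), and 3' ends bound to it are recovered from whole tissue. Cx3cr1-Cre; Ctag-PABP brain gave 3 libraries after lipopolysaccharide (LPS, a bacterial trigger of innate immunity), 3 after PBS and 2 untreated ones, and Ctag-PABP cortex gave 2 libraries each from Gfap-Cre, Camk2a-Cre and Gad2-Cre mice, so tissue and cell type cannot be told apart between Cx3cr1 and cortical libraries. RNA-seq covered microglia pulled with CD11b beads from adult wild-type C57BL/6 brains, 2 brains per tube, 3 libraries after 1 mg/kg LPS injected daily for 4 days and 3 after PBS, and 3 libraries of E18.5 Ptbp2-knockout cortex without a control group. A single liver PAPERCLIP library is labelled CL57/B6J with no driver. The tag depends on the promoter of each driver: Gfap and Cx3cr1 are known to be active also in some neural progenitors and in macrophages at brain borders, and the labels state neither the age of the tagged mice nor the dose and timing of LPS in them. For the tagged and bead-isolated samples nothing says that replicates came from separate litters or days, so p-values measure the spread between these libraries, which may be technical.

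Library totals ran from 679115 to 1041245 counts after LPS, 266330 to 337770 after PBS, 133456 and 154959 in untreated Cx3cr1 brain, 630475 to 2005627 in cortex, 1250170 to 2133407 in microglial RNA-seq and 19446610 to 27415288 in knockout cortex. The untreated Cx3cr1 pair is shallow: 23 and 26 of the 34 genes had fewer than 10 counts there. Marker genes followed the labels in part, with 6.71% to 8.17% of counts on microglial genes in the 8 Cx3cr1 libraries, against 0.00514% to 0.0198% in cortex, and each driver's own gene present in its line. Astrocyte genes took 0.467% and 0.318% of counts in untreated Cx3cr1 libraries, 3.91% and 3.32% in Gfap and 0.0384% to 0.0752% in neuron libraries. Camk2a itself had 2130 and 2342 CPM in Camk2a libraries, but also 338 and 140.6 CPM in Gfap and 535 and 290 CPM in Gad2 libraries. The second Gfap library held 0.979% oligodendrocyte counts, against 0.136% in the first. PBS replicate 3 held 0.325% of counts on the pan-neuronal and 0.246% on the hepatocyte list, where the other PBS and all LPS libraries held at most 0.0642% and 0.0714%. RNA-seq PBS replicates 1 and 2 held 0.774% and 0.721% on the hepatocyte list. With 5 and 4 of its 9 genes at 0 there, these counts rest on a part of the list, which includes Ttr and Trf. Replicate 3 of both microglial RNA-seq groups had Xist at 1.14 and 1.60 CPM, where the other libraries of these groups had 1154 to 1405 CPM. Among tagged libraries, Xist had 0 counts in both Gfap and both of the shallow untreated Cx3cr1 libraries. It had 46.0 and 18.9 CPM in Gad2 and 29.9 and 39.3 CPM in Camk2a libraries. After PBS it had 10.9, 0 and 11.8 CPM, and after LPS 6.72, 14.7 and 0 CPM. The labels give no sex. The part of these markers and of Xist in the results was not tested beyond the fits that left libraries out. Such fits cannot test Xist where whole groups differ.

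The promoters shown next belong to 3 genes whose messages stood above cortical levels in microglia, with values given further on: the poly(A) polymerase gene Papola, the PAN3 gene and the deadenylase gene Cnot6l. The table holds 3 windows for Cnot6l, and the one shown is the one with the letters marked below; the other 2 held none. Each run is 300 bases of RefSeq sequence (GRCm38.p6), 250 before and 50 after an annotated start, on the strand of the gene. Papola is at chr12:105784447-105784746 on the plus strand, Pan3 at chr5:147429906-147430205 on the plus strand and Cnot6l at chr5:96161941-96162240 on the minus strand. Capitals mark GAGGAA or its reverse complement TTCCTC, core letters of the motif known for PU.1, a transcription factor of myeloid cells; the motif was picked after the values were seen.
Papola: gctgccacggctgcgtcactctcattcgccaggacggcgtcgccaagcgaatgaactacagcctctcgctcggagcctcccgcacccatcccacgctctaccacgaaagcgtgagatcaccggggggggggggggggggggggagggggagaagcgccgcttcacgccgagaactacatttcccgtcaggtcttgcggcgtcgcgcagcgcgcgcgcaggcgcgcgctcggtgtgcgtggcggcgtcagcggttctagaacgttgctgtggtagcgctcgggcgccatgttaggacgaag
Pan3: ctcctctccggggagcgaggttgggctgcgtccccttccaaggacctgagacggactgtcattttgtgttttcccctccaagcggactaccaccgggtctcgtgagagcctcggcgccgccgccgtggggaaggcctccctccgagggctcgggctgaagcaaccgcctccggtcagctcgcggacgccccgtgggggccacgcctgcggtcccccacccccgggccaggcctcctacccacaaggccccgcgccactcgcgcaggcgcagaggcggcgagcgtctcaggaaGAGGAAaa
Cnot6l: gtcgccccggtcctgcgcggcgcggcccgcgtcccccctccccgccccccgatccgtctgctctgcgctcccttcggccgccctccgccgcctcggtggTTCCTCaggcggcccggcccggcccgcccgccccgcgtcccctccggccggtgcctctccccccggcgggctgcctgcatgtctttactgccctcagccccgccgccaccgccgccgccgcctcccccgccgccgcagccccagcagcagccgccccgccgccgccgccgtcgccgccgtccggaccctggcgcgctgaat

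Of 32851 promoter windows of this length, 9289 (28.3%) held these letters on either strand, with no other motif searched. Among the members that differed between untreated Cx3cr1 and cortical libraries and have a window in the table, 4 of 10 windows of 7 higher genes held them (Pan3, Cnot6l, Pcf11 and Cnot2, with 1 of 3 windows of Cnot6l and 1 of 2 of Cnot2) and 0 of 6 windows of lower genes did. The Papola window held none. These letters were picked after the values were seen, and the same values sorted the genes into higher and lower. The shares were not tested, and only Papola, Cnot6l, Cstf2 and Tob1 kept their call without any one library. A match is a run of letters and not a bound site, and a window without one says nothing about the factor.

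Across the 4 tagged cell types, 18 of the 27 genes with enough counts to test differed (edgeR quasi-likelihood F test, adjusted p under 0.05), where 78.7% of all 9421 tested genes did. Not tested for low counts were Cpsf4, Cstf1, Nudt21, Clp1, Fip1l1, Cnot3 and Cnot10. The genes of all 9 complexes and groups took part, from 2 of 6 tested specificity-factor genes to both poly(A) polymerases and both Tob genes. Mean levels were highest in untreated Cx3cr1 libraries for 14 genes, in Camk2a for 6, in Gfap for 5 and in Gad2 for 2, and lowest in Cx3cr1 for 11, Gfap for 9, Gad2 for 5 and Camk2a for 2. This ranking was not made over all genes, and the shallow Cx3cr1 pair was often at either end, so no pattern is read from it. Cpsf6 ranks as highest in Cx3cr1 at a mean of 226.1 normalised CPM, against 225.6 in Gad2 and 225.1 in Camk2a.

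**Figure D1:**
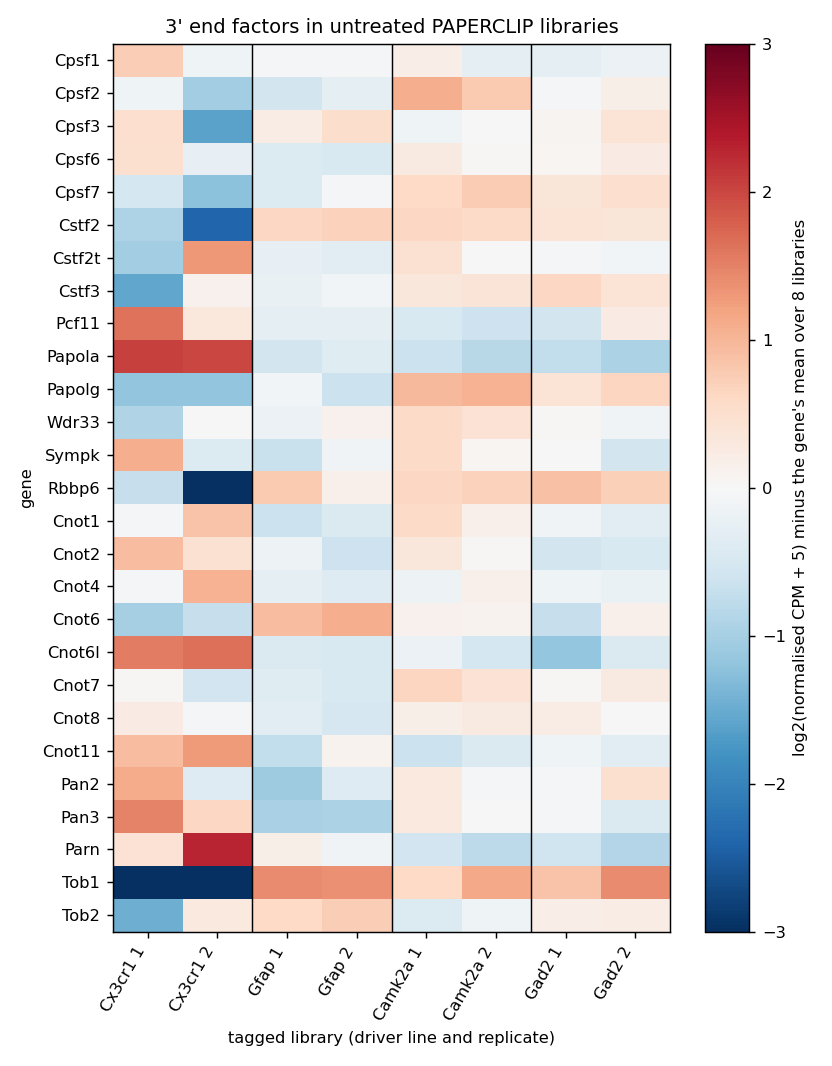
Levels of the 27 tested genes in the 8 untreated libraries, as log2(normalised CPM + 5) minus the mean of the gene; columns are libraries by driver and rows are genes. Red is above and blue below the mean of the gene, with colours ending at 3 log2 units; Papola, Pan3 and Cnot6l are red in both Cx3cr1 columns and Tob1 and Cstf2 blue.

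The poly(A) polymerases lay on opposite sides of the cortical level in the untreated pair, Papolg on 2 counts. Papola, the main nuclear enzyme, stood at 596 and 579.8 normalised CPM (counts scaled to a common library size, here with TMM factors) in untreated Cx3cr1 libraries, against 93.8 and 108 in Gfap, 87.9 and 76.6 in Camk2a and 81.5 and 69.99 in Gad2 libraries. Both microglial values lie far above all 6 cortical ones, and the cortical types lie close together. The log2 difference from the mean of the cortical types was 2.78 (SE 0.20, adjusted p = 1.11e-09), and from Gfap alone 2.53 (SE 0.25). Papolg, a second nuclear polymerase, had 7.27 and 7.34 normalised CPM in Cx3cr1 libraries, against 21.6 and 12.9 in Gfap, 50.2 and 53.1 in Camk2a and 32.3 and 38.4 in Gad2. Its untreated Cx3cr1 values lay below those of every cortical library, which the PBS libraries described further on did not repeat. They are 2 counts over the Cx3cr1 pair, 19.2% of the cortical level with a 95% counting interval of 2.32% to 70.0%, and the call was lost without Cx3cr1 replicate 1 (adjusted p = 0.0933) or 2 (adjusted p = 0.123). In bulk libraries, fewer cells of a type and less RNA per cell cannot be told apart, here and in every comparison that follows.

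**Figure D2:**
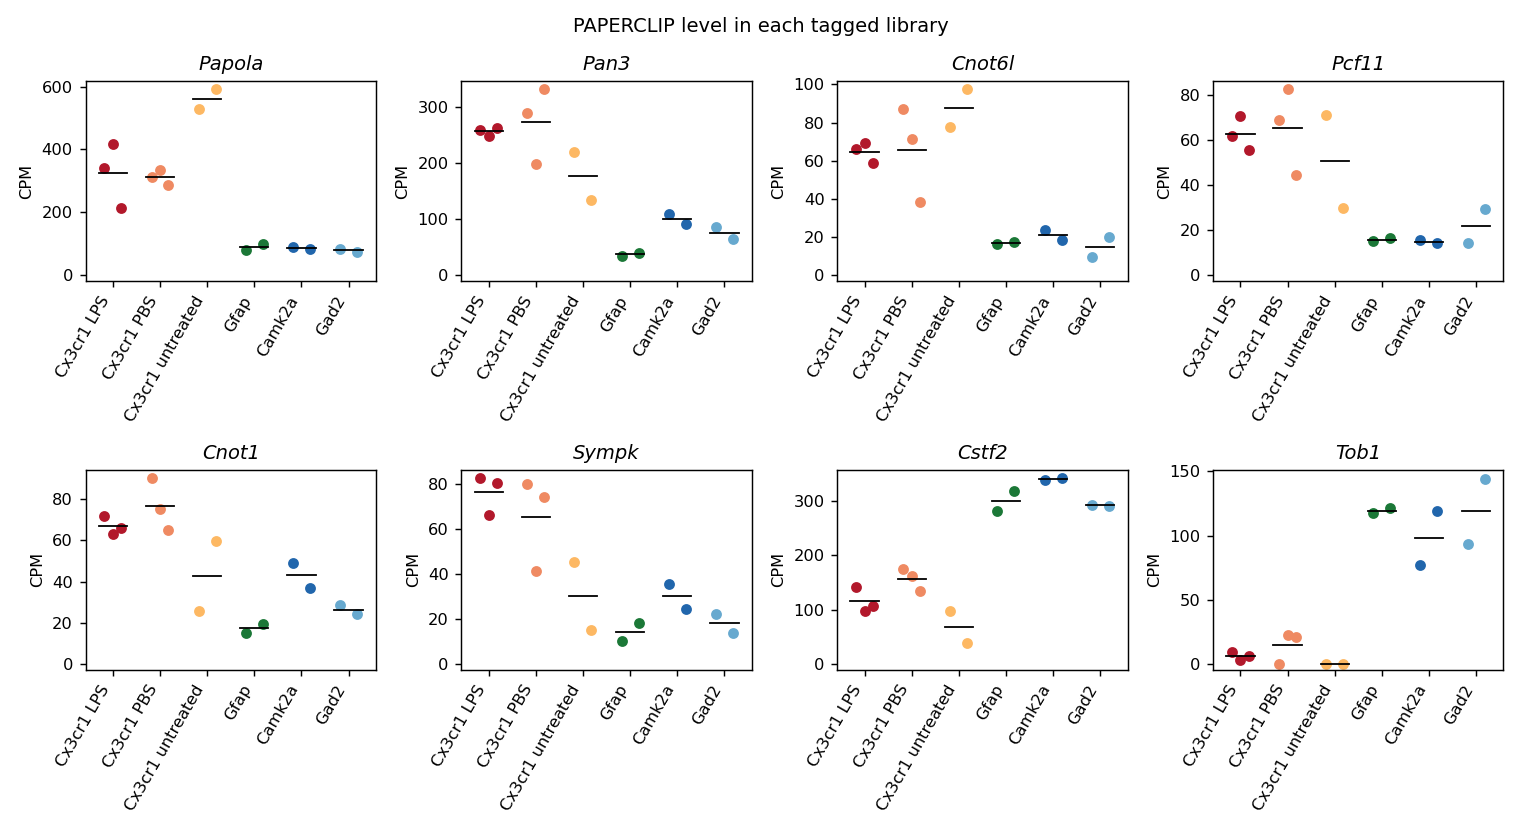
Levels of 8 genes in every tagged PAPERCLIP library, one panel per gene. The y axis is CPM, the count scaled by the library total, and each point is a library. Papola, Pan3, Cnot6l and Pcf11 sit higher in the Cx3cr1 libraries than in the cortical ones, while Tob1 is at 0 in both untreated Cx3cr1 libraries.

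Among cleavage factors, Cstf2 stood out. It encodes the stimulation-factor subunit that binds the GU-rich element, and is X-linked with an autosomal retrogene copy, Cstf2t. Cstf2 had 109 and 36.7 normalised CPM in Cx3cr1 libraries, against 325 and 341 in Gfap, 328 and 314 in Camk2a and 283 and 273 in Gad2 libraries. The cortical values lie close together, while the microglial pair is lower and uneven. The log2 difference was -2.08 (SE 0.34, adjusted p = 5.75e-05). Cstf2t had 36.3 and 206 normalised CPM in the Cx3cr1 pair, a spread wider than any difference between types. Reads of Cstf2 and Cstf2t could be assigned to either where their sequences are near-identical, which the deposited counts do not show.

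Pcf11, the cleavage factor II subunit that also helps end transcription, had 79.9 and 29.4 normalised CPM in Cx3cr1 libraries, against 17.3 and 17.8 in Gfap, 15.0 and 13.02 in Camk2a and 13.8 and 27.6 in Gad2 (log2 difference 1.64, SE 0.51, adjusted p = 0.0130). The groups do not overlap but the lower Cx3cr1 value comes close to the higher Gad2 one, and without Cx3cr1 replicate 1 the difference was 0.58 (adjusted p = 0.570). Cpsf7, which makes up cleavage factor I together with Nudt21, had 50.9 and 29.4 normalised CPM in Cx3cr1, 56.3 and 73.6 in Gfap, 117 and 133 in Camk2a and 99.9 and 110.4 in Gad2 libraries. Levels in both glial types lay below both neuron types; the Cx3cr1 difference of -1.25 (SE 0.40) lost its call without Cx3cr1 replicate 2 (-0.98, adjusted p = 0.124). Rbbp6, a ubiquitin ligase of the cleavage complex, had 21.8 and 0 normalised CPM in the Cx3cr1 pair, against 42.9 to 75.3 in cortex. That is 3 counts, 17.97% of the cortical level with a counting interval of 3.69% to 52.8%, and without Cx3cr1 replicate 2 the log2 difference was -1.56 (adjusted p = 0.0924). Cpsf2, a subunit related in fold to the endonuclease Cpsf3, had 102 and 51.4 in Cx3cr1, 75.01 and 90.2 in Gfap, 244 and 194 in Camk2a and 106 and 127 in Gad2 libraries. Excitatory neurons were the highest for Cpsf2 and Gad2 libraries next, the lower of them close to the higher Cx3cr1 library. Gfap and Cx3cr1 libraries overlapped.

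Deadenylase genes also divided. Pan3, the adaptor that brings PAN2 to the tail, had 247 and 132 normalised CPM in Cx3cr1 libraries, against 40.4 and 41.7 in Gfap, 106 and 84.1 in Camk2a and 83.0 and 61.1 in Gad2. Microglia were highest and astrocytes lowest, with no overlap between either and the neurons. The difference from cortical types was 1.54 (SE 0.29, adjusted p = 0.000260), and 0.86 (adjusted p = 0.0903) without Cx3cr1 replicate 1. Cnot6l, a catalytic CCR4-type subunit, had 87.2 and 95.4 in Cx3cr1, 18.8 and 18.4 in Gfap, 23.2 and 17.02 in Camk2a and 9.23 and 18.7 in Gad2 libraries (2.36, SE 0.41, adjusted p = 8.93e-05). Its paralog Cnot6 ran the other way, at 29.1 and 36.7 in Cx3cr1, 124 and 139 in Gfap, 68.6 and 67.6 in Camk2a and 36.9 and 70.0 in Gad2 libraries. Astrocytes were the highest for Cnot6, and the higher Cx3cr1 library came level with the lower Gad2 one. The Cnot6 difference of -1.27 (SE 0.47) did not pass without Cx3cr1 replicate 1 (adjusted p = 0.0972) or 2 (adjusted p = 0.0771); against Gfap alone it was -2.004 (SE 0.46) and passed without any one library.

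Parn, a nuclease of small RNAs and tails, had 14.5 and 66.1 normalised CPM in Cx3cr1, 11.5 and 8.59 in Gfap, 4.83 and 3.50 in Camk2a and 4.61 and 2.96 in Gad2 libraries (2.90, SE 0.68, adjusted p = 0.00162). One library carries most of this, since the difference was 1.38 (adjusted p = 0.383) without Cx3cr1 replicate 2. Cnot11, a CCR4-NOT scaffold partner, had 102 and 132 in the Cx3cr1 pair, against 28.8 to 55.2 in cortex (1.54, SE 0.36), with an adjusted p of 0.0505 without Cx3cr1 replicate 2. Cnot2, which ties the Not module to the scaffold Cnot1, was higher by 1.07 (SE 0.42, adjusted p = 0.0417) and did not pass when any of the 8 libraries was left out (0.64 to 1.24). Tob1, which recruits CCR4-NOT through Cnot7 and Cnot8, had no count in either Cx3cr1 library, against 136 and 131 normalised CPM in Gfap, 74.4 and 109.6 in Camk2a and 90.7 and 135 in Gad2. Taking 3 counts over the Cx3cr1 pair as the floor, Tob1 in this pair was at least 12.2-fold lower than in Gfap, 8.40-fold lower than in Camk2a and 10.3-fold lower than in Gad2 libraries. That floor, 10.95 normalised CPM, covers counting error only and does not bound the Cx3cr1 line. The deeper PBS libraries of the line had 0, 22.5 and 20.7 CPM.

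In all, 7 of 27 members were higher and 6 lower in untreated Cx3cr1 than in cortical libraries, where 49.8% of all tested genes were called (21.8% higher and 28.0% lower). The median log2 difference of the members was 0.21, also with Tob1 at its bound, against -0.48 over all genes. Against Gfap alone 7 were higher and 4 lower, where 44.6% of all genes were called (17.6% higher and 27.0% lower), with medians of 0.57 and -0.53. Papola, Cnot6l, Cstf2 and Tob1 kept their call against the cortical types without any one library.

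Because the untreated pair is shallow, the 3 PBS libraries of the Cx3cr1 line were set against the same cortical libraries, a comparison chosen after seeing the data; both comparisons share the cortical libraries. PBS-injected Cx3cr1 brain was higher for 10 and lower for 2 of 26 members, where 63.1% of 9496 tested genes were called (30.1% higher and 33.0% lower), and the median was 0.27 against -0.18 over all genes. Papola had 337, 371 and 296 normalised CPM after PBS and 69.0 to 106 in cortex (1.98, SE 0.17, adjusted p = 2.27e-09). Pan3 had 314, 221 and 342 after PBS, against 39.7 to 104 in cortex (2.20, SE 0.19, adjusted p = 3.02e-09). For both genes every PBS library was above every cortical library. Cnot6l had 94.1, 79.3 and 39.7 after PBS and 9.08 to 22.7 in cortex (1.98, SE 0.32). Pcf11 had 74.5, 91.8 and 45.8 after PBS and 12.8 to 27.2 in cortex (1.99, SE 0.30). PBS replicate 3, the library with more counts on the pan-neuronal and hepatocyte lists, was the lowest for Papola, Cnot6l and Pcf11 and the highest for Pan3.

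The deeper PBS libraries also gave calls that the untreated pair did not. Cnot1, the scaffold of CCR4-NOT, had 98.0, 83.5 and 67.2 normalised CPM after PBS, against 17 and 20.4 in Gfap, 46.4 and 33.5 in Camk2a and 27.2 and 22.3 in Gad2 libraries (1.62, SE 0.25). Sympk, the scaffold symplekin that joins the specificity and stimulation factors, had 86.3, 45.9 and 76.4 after PBS and 11.3 to 33.6 in cortex (1.84, SE 0.31). Cnot8, a CAF1-type catalytic subunit, was higher by 0.91 (SE 0.18), Tob2 by 0.78 (SE 0.27) and Cstf2t by 0.59 (SE 0.25). In the untreated pair these 5 genes differed from cortex by -0.63 to 0.72 and did not pass, while Cnot2 was called in both, at 1.16 (SE 0.26) after PBS. On the low side, Cstf2 had 188, 179 and 137 after PBS and 269 to 334 in cortex (-0.86, SE 0.19), and Tob1 had 0, 25.0 and 21.4 after PBS and 72.9 to 133 in cortex (-2.79, SE 0.42). Calls of the untreated pair that the PBS libraries did not give were Cpsf7 (0.04), Papolg (0.32) and Cnot6 (0.16), whose differences were on the other side of 0, and Cnot11 (0.35) and Rbbp6 (-0.64, adjusted p = 0.0505); Parn was not tested there. Against Gfap alone, 12 were higher and 2 lower after PBS, where 53.3% of all genes were called (24.9% higher and 28.5% lower), led by Pan3 at 2.86 and by Cnot1 and Sympk at 2.08 each. Papolg was among the higher ones (1.27, SE 0.41), averaging 38.5 ± 17.97 normalised CPM after PBS (SD, n = 3) against 16.9 ± 6.10 in Gfap (SD, n = 2), whereas in the untreated pair it lay below Gfap.

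**Figure D3:**
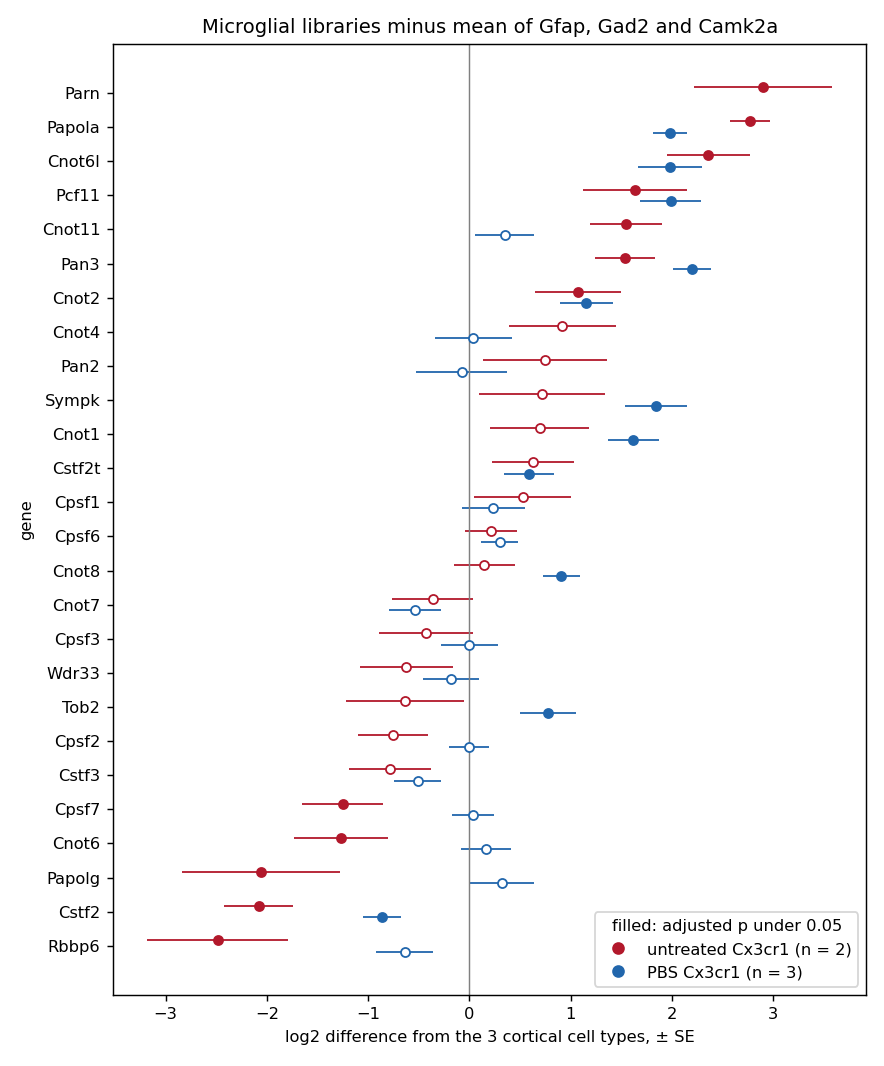
Log2 difference of Cx3cr1 brain from the mean of the 3 cortical types, with SE bars, for untreated (red, n = 2 libraries) and PBS-injected (blue, n = 3) mice against the same 6 cortical libraries. Papola, Pan3, Cnot6l and Pcf11 lie right of 0 in both colours and Cstf2 left of 0; Tob1 is left out because it had no count in the untreated pair.

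PBS and untreated Cx3cr1 libraries were compared directly in a fit of the 8 Cx3cr1 libraries. No member of 23 tested passed, where 2.01% of all genes were called (0.548% higher and 1.47% lower); 6 had an unadjusted p under 0.05 and DESeq2 also called 0. Papola had 323, 358 and 302 normalised CPM after PBS against 604 and 627 untreated, a log2 difference of -0.91 (SE 0.30). Cnot11 had 56.3, 52.3 and 40.5 after PBS against 103 and 143 untreated (-1.31, SE 0.37), and Cnot6 had 90.0, 109 and 62.3 after PBS against 29.5 and 39.7 untreated (1.32, SE 0.50). The other 3 with an unadjusted p under 0.05 were Cpsf7 (1.17), Cstf2 (1.11) and Rbbp6 (1.72). Leaving out 1 library gave between 0 and 2 calls.

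A smaller share of tested members (40.7%) than of all genes was called between astrocyte and neuron libraries. Their lower calls came near the share over all genes. Against the mean of Camk2a and Gad2, 2 of 27 members were higher and 9 lower in Gfap libraries, where 60.5% of all genes were called (31.3% higher and 29.3% lower), and the median was -0.33 against 0 over all genes. Cnot6 was higher by 1.10 (SE 0.22, adjusted p = 0.000198) and Tob2, which like Tob1 tethers deadenylases, by 0.80 (SE 0.26). The 9 lower ones were Papolg (-1.42, SE 0.30, adjusted p = 0.000419), Pan2 (-1.01), Pan3 (-0.99), Cpsf2 (-0.94), Cnot7 (-0.85), Cpsf7 (-0.79), Cnot8 (-0.63), Cpsf6 (-0.62) and Cstf3 (-0.60). They include Pan2 and Pan3, the CAF1-type nucleases Cnot7 and Cnot8, and the large subunits of cleavage factor I, Cpsf6 and Cpsf7. Pan2, Cnot7, Cnot8 and Cpsf6 each lost the call in at least 1 fit that left out a library. No complex is therefore read as lower as a whole. With every library thinned to the shallowest total, 2 of the 11 stayed called, Cnot6 (2.31) and Cpsf2 (-1.05), and Cnot8 was 0.0106. Cpsf6 had 150.0 and 145 normalised CPM in Gfap libraries, against 242 and 208 in Camk2a and 211 and 241 in Gad2. Cnot7 had 43.3 and 39.9 in Gfap libraries, against 91.8 and 79.1 in Camk2a and 58.4 and 70.0 in Gad2.

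Some of these calls rested on single libraries. Without the second Gfap library, the one with more oligodendrocyte counts, Papolg (-0.98, adjusted p = 0.0592), Cnot7 (-0.77), Cnot8 (-0.50), Cpsf6 (-0.58), Cstf3 (-0.70) and Tob2 (0.71) did not pass. Without the first, Cpsf6 (-0.66), Cstf3 (-0.55) and Pan2 (-0.76) did not. Leaving out Gad2 replicate 1 cost Cstf3 (-0.58), and Gad2 replicate 2 cost Cpsf6 (-0.58) and Pan2 (-0.85). Without Camk2a replicate 1, Cpsf6 (-0.58), Cstf3 (-0.64), Pan2 (-0.94) and Tob2 (0.70) did not pass, and without Camk2a replicate 2, Cstf3 (-0.62) and Cnot8 (-0.62) did not. Cnot6, Cpsf2, Cpsf7 and Pan3 passed without any one library. Tob2 was 0.58 and did not pass when only library totals were used for scaling, which moved the median of all genes to -0.21.

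Between excitatory and inhibitory neurons, log2 differences of the members ran from -0.63 to 0.90. With 2 libraries each, a missed threshold does not show equal levels. Of 27 members, 1 was higher and 0 lower in Camk2a than in Gad2 libraries, where 21.2% of all genes were called (11.6% higher and 9.60% lower), and 4 had an unadjusted p under 0.05. The count over all genes was 2001, against 1209 without Gad2 replicate 1, 1026 without Gad2 replicate 2, 1127 without Camk2a replicate 1 and 1180 without Camk2a replicate 2. Medians were 0.23 for the members and 0.03 for all genes. The gene called was Cpsf2 (0.90, SE 0.24, adjusted p = 0.0109), with 244 and 194 normalised CPM in Camk2a against 106 and 127 in Gad2. It did not pass without Gad2 replicate 1 (0.78), Gad2 replicate 2 (1.06) or Camk2a replicate 1 (0.74).

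Several pairs of paralogs shared the list, and their shares within a library do not depend on scaling. Lengths differ between paralogs, so a share is compared between libraries of one assay and not read as a ratio of molecules. Papola made up 98.8% of Papola plus Papolg counts in both untreated Cx3cr1 libraries and 86.4% to 96.9% after PBS or LPS, against 81.3% and 89.3% in Gfap, 63.6% and 59.1% in Camk2a and 71.6% and 64.5% in Gad2. Neurons were thus the lowest, with no overlap with either glial line. Cnot6 made up 25.0% and 27.8% of Cnot6 plus Cnot6l counts in untreated Cx3cr1 libraries and 50% to 64.9% after PBS or LPS, against 86.9% and 88.3% in Gfap, 74.7% and 79.9% in Camk2a and 80.0% and 78.9% in Gad2. All 8 Cx3cr1 libraries were below all 6 cortical ones, the untreated ones on 4 and 5 Cnot6 counts beside 12 and 13 of Cnot6l. Tob1 made up 0% of Tob1 plus Tob2 counts in the untreated pair, where Tob2 had only 1 and 5 counts. After PBS or LPS the Tob1 share was 0% to 29.2%, against 71.7% to 80.8% in the cortical libraries, without overlap. PBS replicate 1, at 0%, had 10 Tob2 counts. Bead-isolated microglia had Tob1 shares of 7.69% to 18.7%. Cstf2 was less clear, at 75% and 15.2% of Cstf2 plus Cstf2t in the untreated pair and 49.6% to 68.2% after PBS or LPS, against 74.6% to 84.2% in cortex. Cpsf6 made up 84.8% and 85.2% of Cpsf6 plus Cpsf7 in the untreated pair, 66.2% to 77.0% after PBS or LPS and 61.0% to 72.7% in cortex, so the injected Cx3cr1 libraries overlapped the cortical ones. Cnot7 made up 34.8% and 29.4% of Cnot7 plus Cnot8 in the untreated pair and 18.2% to 23.1% after PBS or LPS, below the 35.2% to 46.9% of cortex. The untreated shares rest on 8 and 5 Cnot7 counts beside 15 and 12 of Cnot8. The higher of them, 34.8%, is close to the lowest cortical share.

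**Figure D4:**
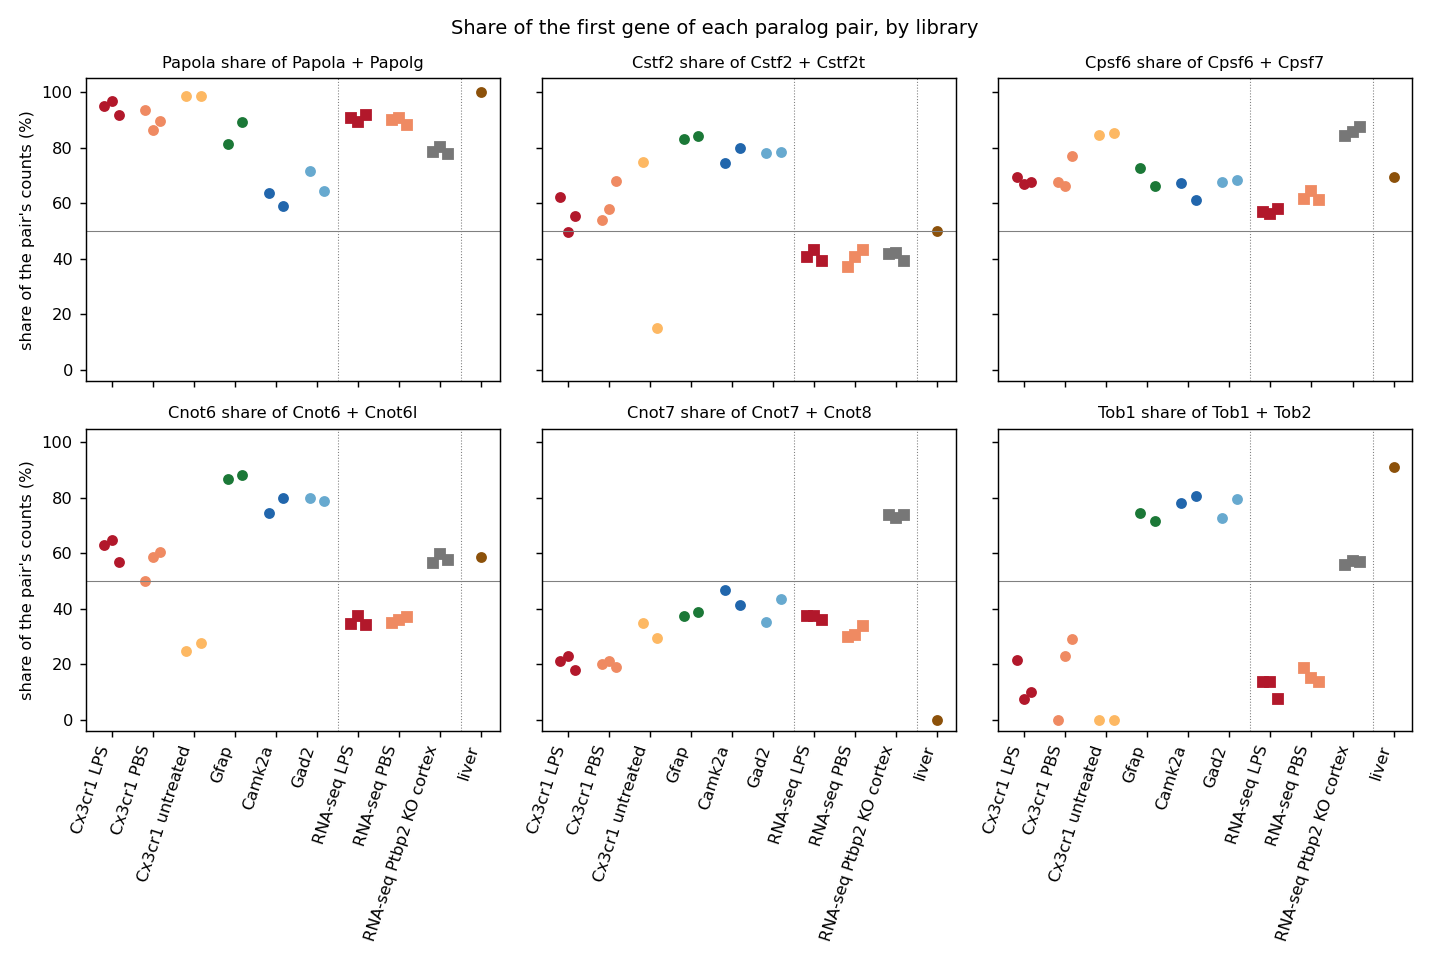
Share of the first gene among the counts of a paralog pair, in percent, in each library; the panels are the 6 pairs and each point is a library, grouped by driver or assay. In the Tob1 and Tob2 panel all Cx3cr1 and microglial libraries lie at 29.2% or below and all cortical PAPERCLIP libraries at 71.7% or above.

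LPS left the levels of these genes in tagged microglia without a call. None of 24 tested members passed in LPS against PBS by PAPERCLIP, where 3.53% of all genes were called (2.74% higher and 0.791% lower); 1 had an unadjusted p under 0.05, and DESeq2 called 0, as did the fit with the replicate number as a block. The treatment itself was visible, since 8 known LPS-response genes such as Saa3 and Lcn2 took 0.404% to 0.656% of counts after LPS and 0.0116% to 0.0149% after PBS. Papola had 350.0, 447 and 220.1 normalised CPM after LPS and 324, 359 and 300.4 after PBS (0.05, 95% interval -0.48 to 0.57). Pan3 had 265, 267 and 271 after LPS and 302, 214 and 347 after PBS (-0.11, interval -0.55 to 0.34). LPS values lay inside the PBS range for Pan3 and around it for Papola. Papolg had 17.7, 14.2 and 19.5 after LPS against 22.6, 56.5 and 34.1 after PBS, without overlap, and its log2 difference of -1.10 (SE 0.39, adjusted p = 0.165) was the one with an unadjusted p under 0.05. Differences ran from -1.10 to 0.57 with a median of -0.19, against -0.01 over all genes. The 95% interval stayed within 1 log2 unit of 0 for 18 of the 24, so changes beyond 2-fold lay outside the interval for these and not for the other 6.

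In bead-isolated microglia, which were counted more deeply, small changes were called. Of 33 tested members 2 were higher and 2 lower after LPS, where 26.4% of all genes were called (15.9% higher and 10.4% lower), and 6 had an unadjusted p under 0.05. Cnot8 had 82.7, 79.0 and 88.8 normalised CPM after LPS against 121, 125 and 115 after PBS (-0.53, SE 0.10, adjusted p = 0.00244). Cpsf6 had 116, 99.5 and 132 after LPS against 136, 155 and 152 after PBS (-0.36, SE 0.12, adjusted p = 0.0421). Cnot8 is a CAF1-type deadenylase and Cpsf6 a large subunit of cleavage factor I. On the other side, Cnot1 had 246, 282 and 266 after LPS against 208, 221 and 226 after PBS (0.28, SE 0.09, adjusted p = 0.0321). Cpsf4, the zinc-finger subunit that helps read AAUAAA, had 44.5, 40.0 and 41.0 after LPS against 27.7, 28.7 and 33.2 after PBS (0.48, SE 0.16, adjusted p = 0.0412). The median over members was -0.14, against -0.02 over all genes, and the 95% interval stayed within 1 log2 unit of 0 for 32 of 33. Microglial marker genes took 4.48% to 5.15% of counts after LPS and 5.94% to 6.02% after PBS in these libraries, and astrocyte genes 0.109% to 0.140% after LPS and 0.148% to 0.151% after PBS. Erythrocyte genes took 0.000656% to 0.00168% after LPS and 0.0113% to 0.0128% after PBS, and lymphocyte genes 0.00552% to 0.00736% after LPS and 0.00099% to 0.00191% after PBS. The part of these cells in the differences was not tested.

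Cnot8 was the steadiest of the 4. It passed in all 15 fits run for this comparison, with an adjusted p of at most 0.0170. Cpsf6 did not pass without PBS replicate 1 (-0.42), 2 (-0.33) or 3 (-0.34) or LPS replicate 1 (-0.35) or 2 (-0.25). Cpsf4 did not pass without PBS replicate 1 (0.42) or 2 (0.46) or LPS replicate 1 (0.45) or 2 (0.52), and Cnot1 not without PBS replicate 1 (0.24) or 2 (0.29) or LPS replicate 2 (0.23). With library totals as the scaling, Cpsf4 (0.37, adjusted p = 0.107) and Cnot1 (0.17, adjusted p = 0.199) lost the call, the median of all genes moved to -0.12, and all calls split into 1284 higher and 1630 lower in place of 1634 and 1072. DESeq2 called Cnot8 and left Cpsf4 (adjusted p = 0.254), Cpsf6 (adjusted p = 0.123) and Cnot1 (adjusted p = 0.136) uncalled. Without replicate 3 of both groups, chosen after seeing the data, all 4 passed.

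**Figure D5:**
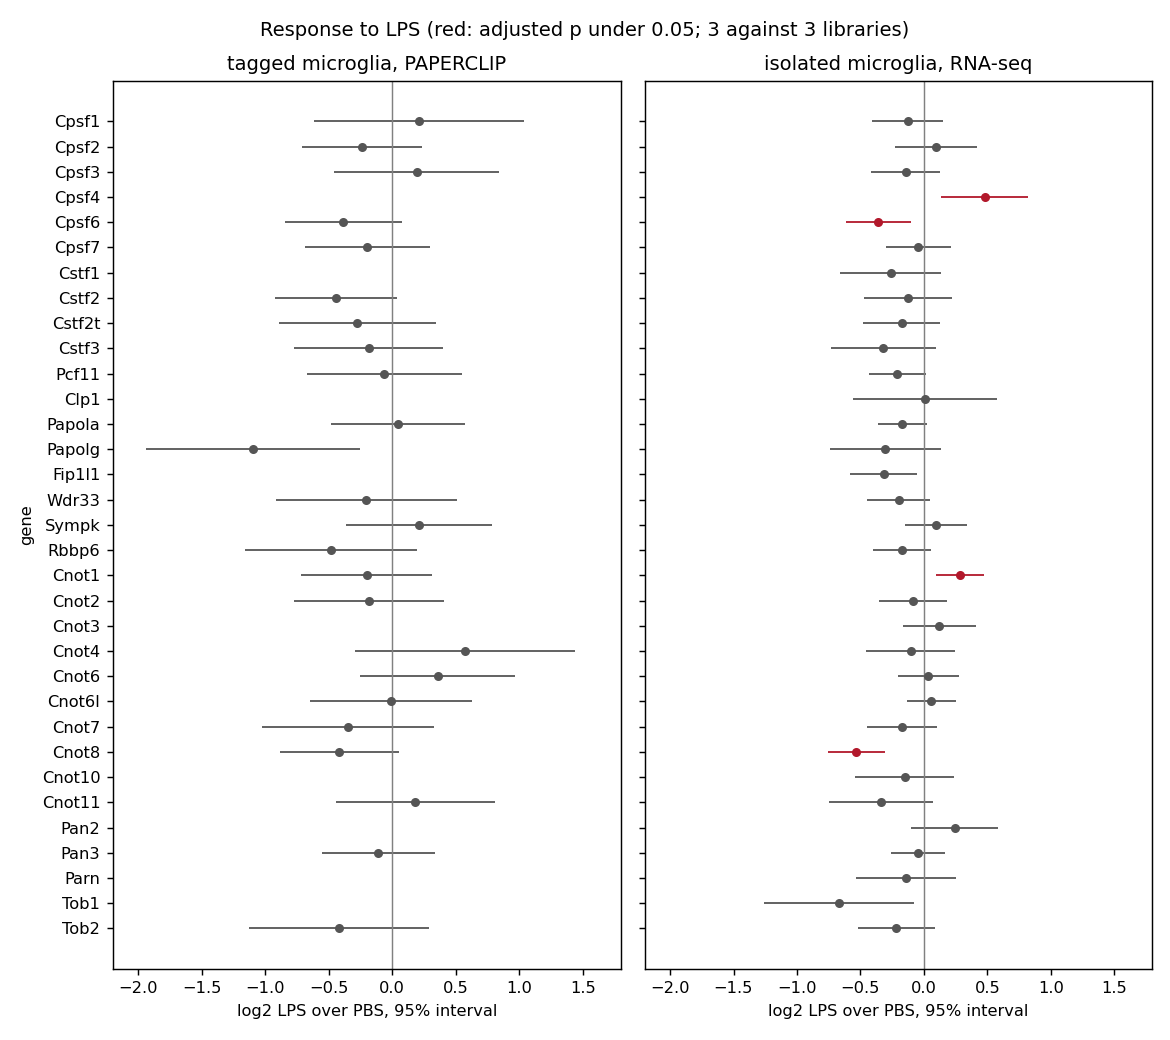
Log2 difference of LPS from PBS for each tested gene in PAPERCLIP and in bead-isolated RNA-seq, with 95% intervals, n = 3 libraries per group; red marks an adjusted p under 0.05. RNA-seq intervals are narrower, and those of Cnot8 and Cpsf6 lie left of 0 and those of Cnot1 and Cpsf4 right of it; no PAPERCLIP member passed the test.

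PAPERCLIP values for the same genes were set beside these. Cnot8 had 129.8, 111 and 120.4 normalised CPM after LPS against 136, 149 and 195 after PBS (-0.42, SE 0.22), and Cpsf6 205, 168 and 160.5 after LPS against 196, 206 and 291 after PBS (-0.38, SE 0.22). Cnot1 had 73.7, 68.0 and 68.1 after LPS against 94.3, 80.8 and 68.1 after PBS (-0.20, SE 0.24). Cpsf4 had 7, 8 and 8 counts after LPS and 3, 4 and 2 after PBS and was not tested. The difference in LPS response between assays was called for 0 of 33 members by edgeR and by DESeq2, where 0.00984% of all genes were called; 1 member, Cnot10, had an unadjusted p under 0.05, with no count in the PAPERCLIP PBS libraries. Over the 31 members with counts in all 4 groups the difference ran from -1.52 to 0.83 with a median of -0.01. A p that misses the threshold does not show equal responses, and the assays differ in tissue handling as well.

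Paralog shares were also compared between LPS and PBS, in 12 exact two-sided permutation tests of log2 ratios, where 3 against 3 cannot go below p = 0.1. Cnot7 made up 37.4%, 37.5% and 36.1% of Cnot7 plus Cnot8 counts after LPS against 29.8%, 30.6% and 33.8% after PBS in RNA-seq (log2 ratio difference 0.36, exact p = 0.1, adjusted p = 0.60). Cpsf6 made up 56.8%, 56.0% and 58.1% of Cpsf6 plus Cpsf7 counts after LPS against 61.5%, 64.4% and 61.1% after PBS (-0.32, exact p = 0.1, adjusted p = 0.60). Groups did not overlap in these 2 tests, both of which include a gene named above. The other 10 had exact p of 0.2 to 0.9, with adjusted p of 0.72 to 0.90. These tests do not use the pairing of same-numbered PAPERCLIP libraries. Within those pairs, a comparison chosen after seeing the data, the log2 ratio of Papola to Papolg was higher after LPS in 3 of 3, by 0.53, 2.27 and 0.38 (mean 1.06, exact two-sided sign-flip p = 0.25, the smallest that 3 pairs allow; adjusted p = 1 over 6 paralog pairs). Papola made up 95.2%, 96.9% and 91.9% of Papola plus Papolg counts after LPS, against 93.5%, 86.4% and 89.8% after PBS. The other 5 paralog ratios had mixed signs over the pairs.

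Some factors were hardly counted by PAPERCLIP. Cnot3, a CCR4-NOT subunit, had no count in any cortical, untreated or PBS library and 1, 1 and 2 counts after LPS, whereas RNA-seq gave 55.4, 57.7 and 52.8 CPM after LPS and 58.4, 47.8 and 57.1 CPM after PBS. The GRCm38 gene table places Leng1 across part of the Cnot3 interval on chromosome 7, and no source used here says how reads of overlapping genes were assigned. Cnot10 had 0 to 4.91 CPM in brain PAPERCLIP and 30.9 to 49.0 CPM in microglial RNA-seq. Nudt21, the UGUA-reading subunit of cleavage factor I, had 0 to 5.92 CPM in PAPERCLIP libraries, 5.87, 5.16 and 5.60 CPM in RNA-seq after LPS and 6.93, 3.19 and 11.4 CPM after PBS. In Ptbp2-knockout cortex the same gene had 104, 97.3 and 97.9 CPM, in ribosome-depleted libraries of another tissue and age. For genes at these levels a difference was not detectable at this depth.

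Liver and knockout cortex give levels only. The liver library, of 115734 counts, had Papola at 648 CPM (exact Poisson 95% interval 510 to 812) and Tob1, which had no count in untreated Cx3cr1 brain, at 613 CPM (479 to 774). Pan3 had 164 CPM and Cpsf6 138 CPM, 28 members had fewer than 10 counts, and Cstf1, Nudt21, Papolg, Wdr33, Cnot7 and Cnot10 had none, which allows up to 31.9 CPM each. Intervals and floors cover counting error only. In the knockout cortex, where Ptbp2 was still counted at 36.7, 28.5 and 26.3 CPM, Cpsf6 averaged 450 ± 25.1 CPM, Papola 207 ± 6.54, Cnot1 208 ± 19.8, Pan3 119 ± 1.505 and Tob1 16.1 ± 1.48 (SD, n = 3). Cnot7 made up 72.6% to 73.8% of Cnot7 plus Cnot8 counts there and Papola 77.9% to 80.1% of Papola plus Papolg.

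Other genes of tail metabolism were read from a list of 67 that covers tail-binding proteins, decapping factors, AU-rich and Pumilio binders, terminal nucleotidyltransferases and elongation-linked factors. Of 53 tested in the cell types, 33 differed, where 78.7% of all genes did. In untreated Cx3cr1 against cortical libraries 13 were higher and 10 lower, where 21.8% and 28.0% of all genes were, with Zfp36l1 (5.59) and Zfp36 (4.17), which recruit CCR4-NOT to AU-rich messages, among the higher ones and Cpeb4 (-1.505), a binder of cytoplasmic polyadenylation elements, among the lower ones. Zfp36l1 had 371 and 646 normalised CPM in Cx3cr1 libraries, 317 and 339.9 in Gfap and 0.483 to 3.00 in neurons, so both glial types carried it. Leo1 and Noct had 1 count each in the Cx3cr1 pair, at 4.63% (counting interval 0.117% to 25.9%) and 4.76% (0.120% to 26.6%) of their cortical levels. Pabpc1 was higher by 8.21 with 58.1 and 866 normalised CPM in Cx3cr1, an uneven pair, and at most 2.50 in cortical libraries. The tagged protein is itself a poly(A)-binding protein, and its reads cannot be told apart from those of the native gene here. The cortical lines carry the same Ctag-PABP, and the part of the tag in this difference was not tested.

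Against Gfap alone, 9 of the 53 were higher and 8 lower in Cx3cr1 libraries, where 17.6% and 27.0% of all genes were; Pum2, a Pumilio protein that recruits deadenylases, was higher by 2.61 with 262 and 323 normalised CPM against 38.9 and 53.4. In Gfap against neurons 8 were higher and 13 lower, where 31.3% and 29.3% of all genes were, among them Zfp36l1 (7.45), Lsm14a (1.66) and Patl1 (1.23) above and the decapping genes Edc4 (-2.19) and Dcp2 (-1.96) below, with Noct (-1.63). In Camk2a against Gad2, 3 were higher, Celf1 (1.70), Tnks1bp1 (1.61) and Cpeb1 (2.22), and 4 lower, with Tent5a at -5.83, Tnrc6a at -0.96 and Dcp2 at -0.82, where 11.6% and 9.60% of all genes were called. In PBS against untreated Cx3cr1 brain, 1 of 39 was called, where 2.01% of all genes were: Pabpn1, the nuclear tail-binding protein, with 829, 1026 and 803 normalised CPM after PBS against 279.9 and 246 untreated (1.75, SE 0.28).

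After LPS, 0 of 40 of these genes passed by PAPERCLIP in edgeR, with 3 at an unadjusted p under 0.05, where 3.53% of all genes passed. In bead-isolated microglia 2 were higher and 3 lower of 64, where 15.9% and 10.4% of all genes were. Pabpc1 had 1233, 1173 and 1136 normalised CPM after LPS against 427, 455 and 476 after PBS in these wild-type cells, which carry no tag (1.38, SE 0.09). Cpeb4 was higher by 0.42. Srsf7, a splicing factor that also acts on 3' end choice, fell by 0.65 on the log2 scale, with 73.6, 85.8 and 84.6 after LPS against 133, 118 and 131 after PBS. Btg2, a deadenylase activator related to Tob1, differed by -0.53 and the uridylyltransferase Tut4 by -0.36. The difference between assays was called for 0 of 64 by edgeR, where 0.00984% of all genes were, with 2 at an unadjusted p under 0.05.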

How the data were processed

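For each of 24 libraries, counts per gene as the authors deposited them were analysed; they are whole numbers with no scaling. The submitters' processing notes name mm10, STAR for RNA-seq, and Novoalign with cutadapt for PAPERCLIP, but no versions, and no source used here states duplicate collapsing, strand use or the assignment of overlapping genes. RNA-seq identifiers were matched to symbols with a gene name table (46488 of 47069), and 23091 genes were shared by both assays.

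Each comparison was fitted over all genes with edgeR 4.0.16 quasi-likelihood tests (R 4.3.3) after filterByExpr and TMM scaling, with Benjamini-Hochberg adjustment at 0.05; every adjusted p comes from this test unless another is named. Cell types came from 1 fit of 8 libraries, and LPS comparisons from their own 6. SE was taken from the F statistic and 95% intervals from the t quantile. Scripts were tested on simulated data. Replicate pairs differed by more than sampling noise (chi-square per degree of freedom 2.10 to 76.9).

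Values in every sample are given for members passing an LPS, PBS or Camk2a against Gad2 test and for the 10 smallest p of the cell type test; further ones were chosen after their values were seen. The members and lists were chosen with earlier results of these data known. Same-numbered LPS and PBS PAPERCLIP libraries deviated together (correlations 0.129, 0.274 and 0.208 over genes of at least 20 CPM), so the numbers were taken as pairs from the data alone. Alternatives were RLE or total scaling, DESeq2 1.42.0, no filter, thinning, a replicate block, a file-name prefix term, left-out libraries and, chosen after seeing the data, PBS in place of untreated libraries, RNA-seq without replicate 3 and paired PAPERCLIP paralog ratios.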

Additional observations from a re-analysis of the deposited data

How the results depend on the processing

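Direction and side of the threshold held in 474 values of single genes, against 93 values of single genes that no longer passed. A looser rule was met by 208 counts or ratios. A count had to stay within the fold limit named in the next paragraph, and a ratio had to keep its sign. Against these stood 17 counts that moved, and 15 values of any kind changed sign. Genes that a setting left untested were not tallied separately. None of the causes was tested beyond the construction of each setting. Thinning every library to the shallowest total, which removes counts, left 8 members called between any cell types, 2 for Gfap against neurons, 7 for Cx3cr1 against cortical types and 2 for LPS in RNA-seq, where DESeq2 called 1. Cnot8 in Gfap against neurons turned to 0.0106 when thinned. With PBS libraries in place of untreated ones, chosen after seeing the data, Cpsf7 was 0.0376, Papolg 0.32 and Cnot6 0.16. Without 1 library at a time, calls numbered 12 to 21 between any cell types, 0 to 2 for Camk2a against Gad2, 5 to 13 for Gfap against neurons, 7 to 12 for Cx3cr1 against cortical types, 8 to 11 for Cx3cr1 against Gfap, 0 to 2 for PBS against untreated and 1 to 4 for LPS in RNA-seq; a lone library is then assumed to vary like the other groups. LPS by PAPERCLIP and the difference between assays stayed at 0 calls in every fit run. The Tob1 to Tob2 log2 ratio after LPS in PAPERCLIP was 0.39 with a pseudocount of 0.1, and ranged from -1.26 to 0.32 without 1 library. The same range was -0.0488 to 0.136 for Cstf2 to Cstf2t in RNA-seq, -0.296 to 0.0897 for Cpsf6 to Cpsf7 in PAPERCLIP, -0.0923 to 0.0100 for Cnot6 to Cnot6l in RNA-seq and -0.0648 to 0.151 for Cnot7 to Cnot8 in PAPERCLIP.

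Counts over all genes that moved by over 1.5 times were, when thinned, 3528 for any cell type difference (7410 as reported), 502 for Camk2a against Gad2 (2001, or 1026 to 1209 without 1 of its own libraries), 2232 for Gfap against neurons (5702), 2685 for Cx3cr1 against cortical types (4687) and 2226 against Gfap (4203). PBS against untreated gave 103 calls, 214 with DESeq2, 313 without a filter and 3 to 495 without 1 library; library totals split it as 40 higher and 63 lower in place of 28 and 75. LPS by PAPERCLIP gave 201, 632 without a filter, 423 with the replicate block, 317 with the prefix term and 74 to 167 without 1 library. LPS in RNA-seq gave 2706 and 1781 with DESeq2. The difference between assays gave 1, 89 with DESeq2, 114 without a filter, 57 with the block, 23 with the prefix term, 19 without PAPERCLIP replicate 3 and 1 to 37 without 1 library. In RNA-seq, same-numbered libraries correlated at 0.0612, 0.0659 and 0.105 and were not taken as pairs; the replicate block there called 3 members (Cpsf4 adjusted p = 0.0528) and 2770 genes. The block changed no other member count by over 1.5 times, and pairing the PAPERCLIP paralog ratios, chosen after seeing the data, gave exact p of 0.25 to 1. Depth limits the untreated Cx3cr1 pair, the liver library and genes at a few counts.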
